A study of Mus musculus with 8 samples.

Results

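The regions described here carried a called peak for both YY1 and P300 in mouse embryonic stem cells. They were chosen from the calls alone. Peaks of all 8 libraries on chromosomes 1 to 19 and X that overlapped by 1 bp or more were joined into merged regions. A merged region was kept when at least 2 of the 4 YY1 libraries and at least 2 of the 4 P300 libraries had a peak in it. Of 23421 merged regions, 369 met this rule (1.58%), and 77 of these were called in all 8 libraries. Because the calls chose the regions, how often they were called is a description and carries no test, also where it is given by genotype. Tests were run on the place of the summit, the width of the peak and the order of regions by −log10 q between genotypes. The rule did not choose regions by these values directly, but it is not free of them. A call rests on a −log10 q threshold, and joining by overlap favours wide peaks and limits how far apart summits can lie.

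YY1 is a zinc-finger transcription factor that binds DNA by sequence, sits at many active promoters and is known to help hold enhancers and promoters together. P300 is a histone acetyltransferase that has no sequence preference of its own: transcription factors recruit it, and it acetylates histones at active enhancers and promoters. Overlap of peaks can also arise at positions that collect reads with any antibody, and a control library made without a specific antibody is the usual way to tell such positions apart. No control library was analysed here, so binding of both proteins and signal that recurs at fixed positions cannot be told apart in these data.

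The libraries were made by CUT&RUN, in which a nuclease is brought to an antibody's target and releases the DNA bound there, in E14TG2a cells, an established embryonic stem cell line grown with LIF and the kinase inhibitors PD0325901 and CHIR99021. The genotypes were wild type (WT) and Alkbh5 del-cIDR (ΔcIDR below). Alkbh5 is an RNA demethylase, the label names a deletion in it, and the series is about intrinsically disordered regions, although the labels do not spell out cIDR. Each antibody and genotype had 2 libraries, and the labels say neither whether these came from separate cultures nor whether the ΔcIDR cells were 1 clone. Any p-value below thus measures the spread between libraries alone, and that spread may be technical. Read depth is unknown, since the files hold no read totals. On the chromosomes used, the YY1 lists held 9167 and 15517 (ΔcIDR) and 3519 and 5833 peaks (WT), and the P300 lists 1322 and 1286 (ΔcIDR) and 1452 and 2474 peaks (WT). Positions are on GRCm39. No sequence or gene annotation on that build was used here, so regions are named by position and no gene or motif is assigned to them.

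The regions were a small part of what YY1 held and a larger part of what P300 held. They made up 5.17% (Wilson 95% interval 4.68 to 5.71) of the 7141 regions in at least 2 YY1 libraries and 31.6% (29.0 to 34.3) of the 1169 regions in at least 2 P300 libraries. The interval covers counting error only. A further 6772 regions were held by YY1 alone, with at most 1 P300 library, and 800 by P300 alone, with at most 1 YY1 library. The calls did not thin out evenly toward the regions where every library had a peak. Among regions in all 4 YY1 libraries, 39 were in 2, 26 in 3 and 77 in all 4 P300 libraries. Among regions in all 4 P300 libraries, 29 were in 2, 34 in 3 and 77 in all 4 YY1 libraries.

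**Figure D1:**
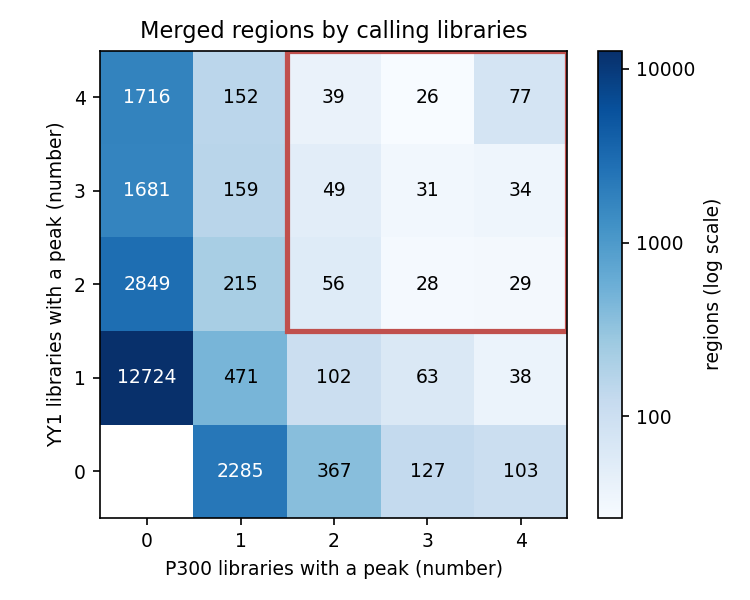
Number of merged regions by how many YY1 libraries (vertical axis) and P300 libraries (horizontal axis) have a peak in them, with color on a log scale and the shared regions inside the red frame. The frame holds 369 regions, and its corner with all 8 libraries holds 77, more than either cell beside it (26 and 34).

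At the edge of the rule the median folds were close on both sides, while P300 percentiles were lower where only 1 P300 library had a peak. The 56 regions with exactly 2 YY1 and 2 P300 libraries had a median fold of 5.00 in their YY1 lists and 4.92 in their P300 lists. Fold is the authors' deposited enrichment of the peak summit over a local background. Just outside, the 215 regions with 2 YY1 libraries and 1 P300 library had median folds of 5.01 and 4.68, and the 102 regions with 1 YY1 and 2 P300 libraries had 5.03 and 4.93. The highest P300 fold was 13.3 inside the rule, 7.34 in the 215 regions and 11.7 in the 102.

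The regions called in all 8 libraries stood near the top of every list. Rank is given here as the percentile of the deposited −log10 q within a library's own list, where 100 is the strongest peak. At the edge of the rule the median P300 percentile was 48.9 in the 56 regions inside, 35.9 in the 215 regions with 1 P300 library and 49.3 in the 102 regions with 1 YY1 library. The YY1 medians there were 51.8, 48.8 and 48.1. The median percentile of the 77 regions was 97.9 and 98.2 in the ΔcIDR and 98.0 and 98.4 in the WT libraries of YY1. In P300 it was 94.1 and 93.6 in ΔcIDR cells against 94.8 and 97.0 in WT cells. The other 292 shared regions ranked in the middle, with medians of 66.7 and 75.3 (ΔcIDR) and 52.6 and 61.3 (WT) in YY1 lists, and of 62.9 and 59.7 (ΔcIDR) and 64.8 and 72.7 (WT) in P300 lists. That is close to regions held by 1 antibody alone, whose medians were 64.4, 74.4, 56.8 and 58.6 for YY1 and 65.8, 65.6, 63.7 and 70.8 for P300, in the same order of libraries. Within each antibody the medians of the 292 regions followed the length of the list, with the highest in the longest list. They therefore do not compare the genotypes. Being called often and ranking high go together, so these medians describe the classes and test nothing.

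**Figure D2:**
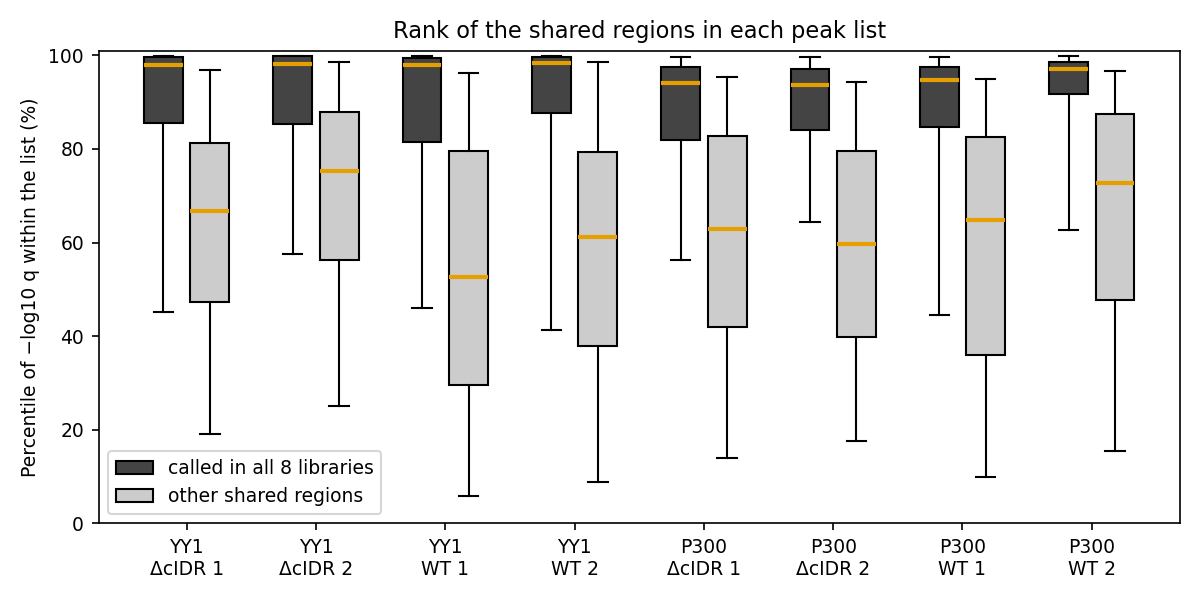
Percentile of −log10 q within each list (vertical axis, %) for regions called in all 8 libraries (dark) and the other shared regions (light), by library. Orange lines are medians, boxes the middle 50% and whiskers the 5th to 95th percentile. The dark medians lie between 93.6 and 98.4 and the light ones between 52.6 and 75.3.

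YY1 strength did not rise step by step with the number of P300 libraries. Among the regions in all 4 YY1 libraries, the median YY1 fold in the libraries ΔcIDR 1, ΔcIDR 2, WT 1 and WT 2 was 7.22, 8.17, 5.84 and 6.58 at the 1716 regions with no P300 peak. At the 39 regions with 2 P300 libraries it was 6.72, 7.14, 5.54 and 5.43, and at the 26 regions with 3 it was 6.20, 6.70, 4.90 and 5.51, lower than without P300 in each library. The 77 regions with all 4 P300 libraries were higher in each library, with 9.50, 10.1, 9.20 and 9.80. From the side of P300 there was no steady rise either. Its median fold was 6.89 and 7.14 (ΔcIDR) and 7.32 and 7.20 (WT) at the 103 regions in all 4 P300 libraries with no YY1 peak. It was 6.92, 7.74, 6.94 and 7.43 at the 34 regions with 3 YY1 libraries, and 11.8, 10.7, 11.7 and 11.8 at the 77 regions. The median width of P300 peaks was 154, 161, 167 and 180 bp with no YY1 library and 202.5, 173.5, 191 and 234 bp with 1. It was 229, 253, 200 and 258 bp with 2, 245, 210, 225 and 287.5 bp with 3, and 315, 308, 311 and 315 bp with all 4. In the ΔcIDR 2 library the value with 3 was thus below that with 2, and in the other 3 libraries each step was upward. A wide P300 peak is more likely to overlap a YY1 peak, so part of this order can come from the joining itself.

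Width separated the classes for P300 more than for YY1. Wide peaks are joined to others more easily, so the classes are not independent of width, and the order of their widths is a description. P300 peaks in the regions called in all 8 libraries had median widths of 315 and 308 bp in ΔcIDR cells against 311 and 315 bp in WT cells. They were 191 to 208 bp in the other shared regions and 160 to 172 bp in the regions held by P300 alone, so the classes came in the same order in each of the 4 lists. YY1 peaks in the all-library regions were 362 and 301 bp wide in ΔcIDR cells against 365 and 363 bp in WT cells. Where YY1 stood alone they were 306 to 353 bp wide. At the 77 regions, where each library has a peak, the log2 difference of P300 from YY1 in width was −0.15, with means over libraries of 312 ± 3.40 bp for P300 and 348 ± 31.2 bp for YY1 (SD, n = 4 libraries). This did not exceed the spread between libraries (two-sided exact permutation test over 70 assignments of libraries, p = 0.14, smallest possible 0.029). The YY1 library ΔcIDR 2 sat below the P300 libraries, and without it the log2 difference was −0.22 (exact permutation p = 0.029).

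The 8 regions with the best mean percentile among those called in all libraries are given first. At chr2:98496594-98497677, 1084 bp wide, the YY1 folds were 23.5 and 29.3 in ΔcIDR cells against 20.3 and 20.8 in WT cells, and the P300 folds 19.6, 17.7, 19.2 and 20.2. Where 4 values are given, here and below, they stand in the order ΔcIDR 1, ΔcIDR 2, WT 1 and WT 2. The region held the peak with the highest −log10 q in all 8 lists, and both ΔcIDR libraries were above the WT libraries in YY1. At chr9:35216512-35216887 the YY1 folds were 42.1 and 50.4 in ΔcIDR cells against 37.7 and 41.0 in WT cells, and the P300 folds were 55.2, 54.6, 55.0 and 55.8. The P300 libraries thus lay within a narrow band while the YY1 libraries spread, with ΔcIDR 2 highest. The same was seen at chr6:103626012-103626254, with YY1 folds of 51.0 and 62.6 in ΔcIDR cells against 47.0 and 51.4 in WT cells beside P300 folds of 72.4, 71.1, 72.2 and 73.0. At chr12:3159872-3160121 the YY1 folds were 50.6, 59.5, 47.9 and 53.3, and the P300 folds 76.8, 76.8, 77.1 and 78.2. ΔcIDR 2 was the highest YY1 library at all 4 of these regions, and the genotypes overlapped in YY1 at the last 2.

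The other 4 of the 8 lay close together near the assembled start of chromosome 9. At chr9:3000017-3000678 the YY1 folds were 13.6 and 15.9 in ΔcIDR cells against 10.0 and 12.2 in WT cells, with P300 folds of 18.4 to 19.5. At chr9:3024036-3024632 they were 21.0 and 17.6 against 20.04 and 17.0, with P300 folds of 20.7 to 21.9. The ΔcIDR libraries were both above the WT libraries in YY1 at the first of these and overlapped them at the second. At chr9:3006526-3007658 the YY1 folds were 16.7 and 20.05 in ΔcIDR cells against 13.9 and 16.1 in WT cells, and at chr9:3002008-3002281 they were 13.9, 17.6, 14.0 and 14.0. P300 folds there were 27.8 to 29.4 and 14.5 to 15.1.

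**Figure D3:**
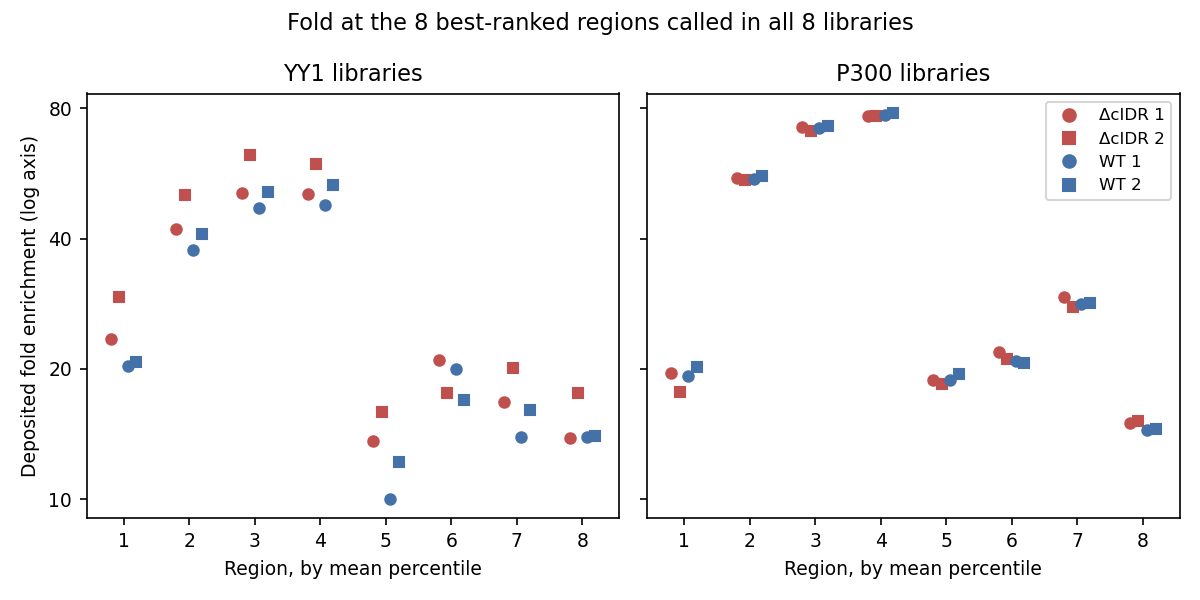
Deposited fold (vertical axis, log scale) at the 8 best-ranked regions called in all 8 libraries, numbered in the order of mean percentile, in the YY1 libraries (left) and the P300 libraries (right). Points are single libraries, red for ΔcIDR and blue for WT, circles for replicate 1 and squares for replicate 2. P300 points of a region nearly coincide, while the YY1 points spread, as at region 3 from 47.0 to 62.6.

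Across the 77 regions P300 folds agreed between libraries more closely than YY1 folds. The highest of the 4 P300 folds was a median of 1.21 times the lowest, and at most 1.86 times, against a median of 1.38 and at most 3.95 times for YY1. The order of the regions by −log10 q was also steadier in P300. Spearman's rho between P300 libraries was 0.961 to 0.975 over the 77 regions, between YY1 libraries 0.864 to 0.953, and between a YY1 and a P300 library 0.708 to 0.897. The 4 lowest values were those of the YY1 library ΔcIDR 2 with the P300 libraries. These correlations are across regions of the same genome, which share mappability and local background, and are given as a description only. Fold exceeded 20 in all 4 libraries at 11 of the 77 regions in YY1 and at 19 in P300. Among the other 292 regions it exceeded 20 in any library at 4 in YY1 and 5 in P300.

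Fold and −log10 q did not always go together. The widest region, chr17:40153888-40159709, was 5822 bp long and was called in all 8 libraries with folds of only 3.98 and 3.97 (YY1 ΔcIDR), 3.31 and 3.32 (YY1 WT), 2.76 and 2.38 (P300 ΔcIDR) and 2.62 and 2.75 (P300 WT). Its percentile of −log10 q was nevertheless 99.2 to 99.7 in the YY1 lists and 90.05 to 94.99 in the P300 lists. Of the 77 regions, 3 had a fold below 5 in every library and a mean percentile above 90. The next widest, chr4:11013997-11015632 and chr6:100354753-100356198, were 1636 and 1446 bp long and ranked lower, with mean percentiles of 59.3 and 65.0. Their YY1 folds were 3.99 to 6.23 and 4.02 to 7.06, and their P300 folds 3.66 to 5.05 and 3.99 to 5.38.

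Not every region called in all libraries was strong. A mean percentile above 90 was reached in the YY1 lists by 48 and in the P300 lists by 51 of the 77, and in both by 43. In 2 regions it was below 60 for both antibodies. Of the 292 other regions, 28 passed 90 in YY1, 30 in P300 and 15 in both.

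The strongest of the other shared regions were missed by YY1 libraries rather than by P300 libraries. All 8 best-ranked ones were called in all 4 P300 libraries and in 2 or 3 YY1 libraries. At chr13:9061739-9062204 the YY1 folds were 29.8 in ΔcIDR 2 and 28.5 and 29.7 in the WT libraries, and the P300 folds were 39.6, 38.8, 41.6 and 39.3, yet ΔcIDR 1 had no YY1 peak there. At chr8:15569814-15570060 the YY1 folds were 12.8 and 23.7 in ΔcIDR and 17.4 in WT 2, with none in WT 1, and the P300 folds 26.3, 28.1, 28.3 and 22.6. A missing call at such a position means that no peak passed the authors' threshold in that list, and the reads there are not in the files. At chr2:5383932-5384187 the YY1 peaks were in ΔcIDR 2 (17.4) and WT 1 (14.5), with P300 folds of 25.3, 25.7, 18.4 and 25.5. At chr3:3005078-3005337 only the WT libraries of YY1 had a peak (11.0 and 10.5), while P300 folds were alike in both genotypes, with 12.4 and 12.6 in ΔcIDR cells against 12.0 and 13.6 in WT cells. The WT-only call was therefore not shared by P300 at this position.

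The remaining 4 of these 8 had lower P300 folds. At chr2:98495364-98495559 folds were 3.83 to 4.51 in the 3 YY1 lists that called it and 4.14 to 4.94 in P300, although its percentiles were 99.2 or higher in each list that called it. At chr14:3053382-3053579 they were 5.22 to 6.60 and 7.14 to 7.87. At chr9:3025488-3025974 the YY1 folds were 9.31, 13.4 and 10.1 and the P300 folds 6.48 to 7.42, and WT 1 had no YY1 peak at any of these 3. At chr9:3035715-3036113 YY1 was called in ΔcIDR 1 (8.37) and WT 1 (8.78), with P300 folds of 7.09 to 7.47.

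Some regions ranked high for only 1 of the proteins. The region with the largest excess of YY1 rank was chr19:3962515-3963287, with YY1 folds of 9.05 and 11.0 in ΔcIDR cells against 7.12 and 5.25 in WT cells, while P300 was called only in ΔcIDR 1 (3.85) and WT 1 (4.48), at percentiles of 1.29 and 16.4. At chr4:109059077-109059553 the YY1 folds were 13.4, 17.4, 7.06 and 11.8, beside P300 folds of 4.44 and 4.43 in the same 2 libraries. At chrX:7580574-7580906 they were 13.7, 15.05, 7.63 and 9.13, beside P300 folds of 4.80 in ΔcIDR 1 and 5.08 in WT 2. In each of these 3 the ΔcIDR libraries were both above the WT libraries in YY1 fold. This was not particular to them. The median YY1 fold at the 1716 regions in all 4 YY1 libraries with no P300 peak was 7.22 and 8.17 in ΔcIDR against 5.84 and 6.58 in WT libraries. At chr7:44497986-44499357, 1372 bp wide, the YY1 folds were 10.4, 10.6, 10.8 and 11.4, so the WT libraries were narrowly above the ΔcIDR libraries, and P300 folds were 4.53, 4.53 and 5.94 in the 3 libraries that called it. The fifth was chr11:55359933-55360520, with YY1 folds of 4.26 to 9.35 and P300 folds of 3.77 and 4.68. This region and chr19:3962515-3963287 were no longer shared when peaks of −log10 q of at least 2 were required.

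At the other end P300 ranked high and YY1 low. At chr17:3131913-3132296 the P300 folds were 11.9, 11.9, 13.3 and 9.69 (percentiles 92.8 to 94.7), while YY1 was called at 4.70 in ΔcIDR 2 and 4.77 and 3.61 in WT libraries (0.634 to 37.9). At chr13:62329828-62330378, called in all 8 libraries, the P300 folds were 7.58, 7.18, 8.67 and 6.75 and the YY1 folds 4.81, 4.55, 3.798 and 4.52. P300 percentiles there were 87.6 to 92.9 and YY1 percentiles 5.80 to 45.2. At chr9:124254322-124254676 P300 folds were 13.3 and 11.8 beside YY1 folds of 5.04 and 4.36, and at chr13:65632756-65633201 they were 8.96 and 14.6 beside 4.41 to 5.29. At chr12:17931551-17931873 P300 was called in the WT libraries only (6.59 and 6.84), with YY1 folds of 4.40 and 4.31. Of the 292 regions, 5 had a YY1 mean percentile above 90 with P300 below 50, and 5 the reverse.

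YY1 and P300 summits lay close together, but summits of the same antibody lay closer still. Peaks were joined by overlap, which limits how far apart their summits can lie, so the closeness itself is a description. The summit is the base at which a peak is highest, and where a library had several peaks in a region the one with the highest −log10 q was used. At the 77 regions the median distance between summits was 8 to 14 bp between P300 libraries (6 pairs) and 11 to 28 bp between YY1 libraries (6 pairs). It was 16 to 33 bp between a YY1 and a P300 library (16 pairs). The mean was 23.1 bp between antibodies and 14.4 bp within them, a difference of 8.71 bp that no other division of the 8 libraries into 4 and 4 reached (one-sided exact permutation test over 35 divisions, p = 0.029, the smallest it can give). Within antibodies the mean was 10.5 bp for P300 and 18.3 bp for YY1, and distances between antibodies overlapped those within YY1. At the 55 regions with exactly 1 peak in every library the means were 14.4 bp between antibodies, 7.67 bp within P300 and 12.2 bp within YY1, and the difference was 4.46 bp (exact permutation p = 0.029).

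Taking the median summit of each antibody, YY1 and P300 lay within 10 bp of each other at 33 of the 77 regions, within 50 bp at 51 and within 200 bp at 64. All 8 summits fell within 50 bp at 32 regions. At chr9:35216512-35216887 they fell within 7 bp, and at chr9:3024036-3024632 within 4 bp. Wide regions differed in this. In chr17:40153888-40159709 the median summits of YY1 and P300 were 3962.5 bp apart, and in chr4:11013997-11015632 853 bp, but in chr9:3006526-3007658 17.5 bp and in chr2:98496594-98497677 8 bp. In the other 292 regions the median summits lay within 10 bp at 50 regions and within 50 bp at 149, and the median distance was 49 bp against 14.5 bp. There, distances between a YY1 and a P300 library (medians of 51.5 to 81 bp) lay close to those between YY1 libraries (57.5 to 69 bp), and P300 libraries were again closer (29.5 to 51.5 bp).

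**Figure D4:**
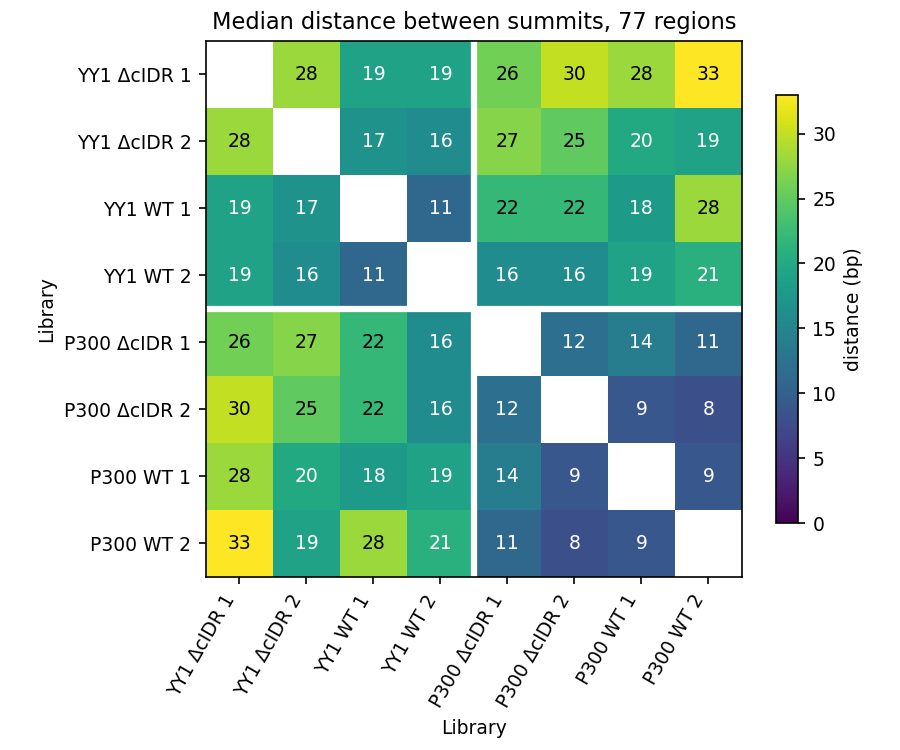
Median distance in bp between the summits of each pair of libraries at the 77 regions called in all 8, with white lines between the antibodies and empty cells on the diagonal. Pairs of P300 libraries (lower right, 8 to 14 bp) are closest, and pairs of a YY1 and a P300 library range from 16 to 33 bp.

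In YY1, more of the shared regions were called in ΔcIDR than in WT libraries, and the ΔcIDR lists were also the longer ones. The ΔcIDR libraries called 300 and 329 of the 369 regions (314.5 ± 20.5, SD, n = 2), while 230 and 277 were called in the WT libraries (253.5 ± 33.2, SD, n = 2). Both ΔcIDR libraries were above both WT libraries, by 0.32 on the log2 scale. When all YY1 lists were cut to the same length, and all P300 lists likewise, the regions were chosen again and 221 met the rule. On these the direction turned, with a log2 difference of −0.17. In P300 the libraries overlapped, with 251 and 273 regions in ΔcIDR cells against 267 and 312 in WT cells, a log2 difference of −0.14, and 0.035 at equal lengths. Without the library WT 2 it was −0.029. These counts are of the calls that chose the regions and have no test.

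Calls in 1 genotype only made up other shares of the shared regions than of all regions. Called in both ΔcIDR libraries and in no WT library were 46 of the 369 regions (12.5%), where the share over all 7141 regions in at least 2 YY1 libraries was 26.8%. The reverse pattern, both WT libraries and no ΔcIDR library, was seen at 13 regions (3.52%), against 0.840% over all. These 13 were thus part of only 60 such YY1 regions in the whole data. For P300, ΔcIDR-only calls were seen at 17 regions (4.61%, near the 5.22% over all 1169 regions in at least 2 P300 libraries) and WT-only calls at 38 (10.3%, against 16.2%). Regions are not replicates, and these counts come from 4 libraries per antibody, so they carry no test. The shorter WT lists of YY1 move with the YY1 shares, and their part in them was not tested.

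YY1 and P300 were both confined to the same genotype at 6 regions, 2 in WT and 4 in ΔcIDR cells. Opposite genotypes were seen at 3 regions with YY1 in ΔcIDR cells only and at 1 with YY1 in WT cells only. Over all 369 regions P300 was WT-only at 10.3% and ΔcIDR-only at 4.61%. Whether the 6 regions are more than such shares would give was not tested. Of the 13 regions that only WT libraries held for YY1, 7 were called in all 4 P300 libraries, 2 in the WT libraries of P300 only and 1 in the ΔcIDR libraries of P300 only. Of the 46 that only ΔcIDR libraries held for YY1, 24 had P300 in 1 library of each genotype, 4 in all 4, 4 in ΔcIDR only and 3 in WT only. The matching WT regions were chr11:31872599-31872852, with WT folds of 12.5 and 10.8 for YY1 and 8.53 and 11.5 for P300, and the weaker chr8:41834481-41835024, with 4.23 and 4.07, and 5.23 and 4.53. At the first of these the summits of the 4 libraries fell within 16 bp, at the second within 323 bp. Only the first was still shared at −log10 q of at least 5 or with lists of equal length.

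The 4 matching ΔcIDR regions were of middle or low rank. At chr1:183078224-183078833 the ΔcIDR folds were 6.59 and 7.18 for YY1 and 4.80 and 6.32 for P300, with the 4 summits within 42 bp. At chr5:139311442-139311960 they were 4.34 and 5.88, and 5.53 and 4.75. At chr12:72132345-72132872 they were 5.14 and 4.03, and 5.57 and 5.12, and at chr11:96868296-96868906 3.67 and 6.51, and 4.11 and 5.20. Summits at the last 3 were spread over 109 to 396 bp. All 4 were called in exactly 2 libraries of each antibody and so lay at the edge of the rule. None was still shared at −log10 q of at least 5, and with lists of equal length only chr1:183078224-183078833 was.

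Among regions that all 4 YY1 libraries called, those that all P300 libraries also called had lower placements in both ΔcIDR libraries than in the WT libraries, with too few libraries for a test to pass. To compare lists of unequal length, each of the 2010 regions in all 4 YY1 libraries was placed by its −log10 q among the same 2010 regions in each library, from 0 to 100. The median placement of the 77 regions was 90.9 and 87.4 in the ΔcIDR and 96.8 and 95.7 in the WT libraries, a difference of −7.09 (two-sided exact permutation p = 0.33, n = 2 per genotype, the smallest that 6 assignments of 4 libraries allow). Both ΔcIDR placements were below both WT placements at 32 of the 77 regions (41.6%), against 18.2% of all 2010, and above at 6 (7.79%), against 19.0% of all. Of the other 65 shared regions in all 4 YY1 libraries, 10 were lower (15.4%) and 13 higher. By fold in place of −log10 q, 24 of the 77 had both ΔcIDR libraries lower (31.2%, against 17.4% of all) and 10 higher, against 18.9% of all. The 77 regions stood near the top of the scale in WT libraries, with less room to rise than to fall. The 1868 of the 2010 regions that were not shared had WT medians of 49.0 and 49.3. The shares over all 2010 are thus not matched for starting placement, and the part of this in the counts was not tested. Placement is relative to the other regions, so a lower placement need not mean a lower fold. The median YY1 fold of the 77 was 9.50 and 10.1 in ΔcIDR against 9.20 and 9.80 in WT libraries. At the 1716 regions in all 4 YY1 libraries with no P300 peak it was 7.22 and 8.17 against 5.84 and 6.58.

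In P300 the median placement of the same 77 regions was also lower in both ΔcIDR libraries than in the WT libraries, by a smaller amount. Among the 281 regions in all 4 P300 libraries their median placement was 74.4 and 72.2 in ΔcIDR cells against 74.7 and 75.1 in WT cells. The difference was −1.60 (exact permutation p = 0.33, n = 2 per genotype). Both ΔcIDR placements were lower at 14 regions (18.2%, against 22.4% of the 281) and higher at 18 (23.4%, against 19.6%). The 77 regions were ranked among 281 regions here and among 2010 in YY1, so the shifts of the antibodies are not on the same scale. The difference between the antibodies in this shift was not tested.

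The regions with the largest shifts in YY1 placement were picked after their values were seen. At chr17:13811189-13811820 the placement was 3.63 and 5.75 in ΔcIDR cells against 70 and 67.8 in WT cells, with YY1 folds of 4.79 and 5.38 against 7.16 and 8.08. P300 folds there were 6.49 and 10.8 against 7.498 and 7.83, so the genotypes overlapped. At chr17:13525426-13526062 the YY1 folds were 8.01 and 5.99 in ΔcIDR cells against 10.9 and 9.40 in WT cells, and P300 folds 14.6, 16.4, 14.0 and 14.5. At chr8:20692520-20692783 the YY1 folds were 5.76 and 5.48 in ΔcIDR cells against 6.77 and 6.87 in WT cells, with P300 folds of 6.34 to 7.18. All 3 lay in 1 Mb windows that held at least 5 shared regions. The largest shift upward was at chr13:66863687-66864392, with placements of 59.6 and 60.2 in ΔcIDR cells against 37.9 and 24.7 in WT cells and YY1 folds of 6.98 and 8.15 against 4.79 and 4.69. P300 folds there were 5.28, 4.79, 4.202 and 4.50, in the same order.

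**Figure D5:**
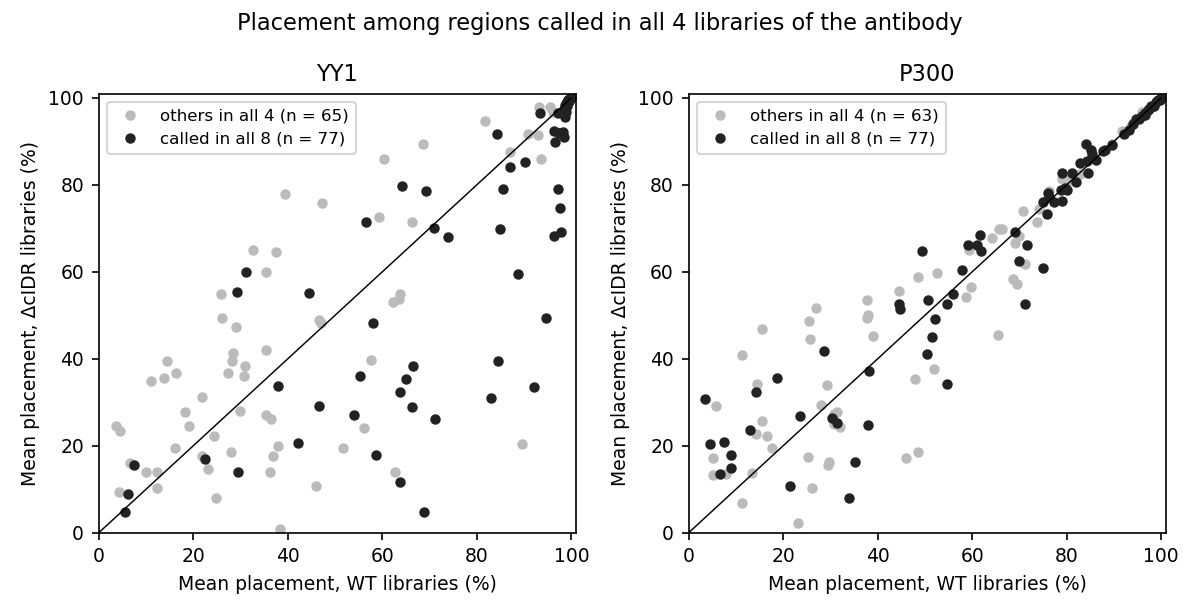
Mean placement in the ΔcIDR libraries (vertical axis, %) against the WT libraries (horizontal axis, %) for shared regions in all 4 libraries of YY1 (left) or P300 (right), black where called in all 8 libraries and grey otherwise. Points on the line have equal placement, which is relative to the other regions and is not a fold. Many black YY1 points lie below the line (32 of 77 with both ΔcIDR libraries lower, and 6 with both higher). The black YY1 points have median WT placements of 96.8 and 95.7, which leaves less room above the line than below it. For P300 the counts are 14 lower and 18 higher.

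The shared regions lay on all 20 chromosomes used, and part of them in a few crowded windows. Another shared region lay within 100 kb of 117 of the 369, while 4280 of the 6772 regions held by YY1 alone and 357 of the 800 held by P300 alone had a neighbour of their own class that close. These classes are larger, so the counts cannot be compared directly. Among the shared regions, 9 windows of 1 Mb with at least 5 shared regions each held 74 (20.1%), among them 27 of the 77 called in all libraries (35.1%). The fullest window, on chromosome 8 from 20 to 21 Mb, held 15 shared regions, 6 of them in all libraries. Chromosome 9 from 3 to 4 Mb and chromosome 13 from 66 to 67 Mb held 10 each, with 8 and 6 in all libraries. The others were on chromosome 8 from 21 to 22 Mb (8 regions), chromosome 14 from 15 to 16 Mb (7), chromosome 4 from 146 to 148 Mb (6 and 7), chromosome 11 from 3 to 4 Mb (6) and chromosome 17 from 13 to 14 Mb (5). The windows were picked for holding shared regions, so their share has no test. They held 21.1% of the regions held by P300 alone and 0.591% of those held by YY1 alone.

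Position near the assembled start of a chromosome was more common among the regions in all libraries. Mouse chromosomes have their centromere at one end, and the assembled sequence begins close to it. Of the 77 regions, 15 (19.5%) ended within the first 4000000 bases of a chromosome, against 13 of the other 292 (4.45%), 4.38% of the regions held by P300 alone and 1.02% of those held by YY1 alone. Among the 15, 8 lay in the window on chromosome 9 from 3 to 4 Mb, which held 10 shared regions. Close together were also chr14:3050782-3051106, chr14:3051760-3052499 and chr14:3053763-3053973. By chromosome, 13.3% of the shared regions lay on chromosome 8, close to the 12.9% of the regions held by P300 alone and above the 5.42% of those held by YY1 alone. Chromosomes 9, 13 and 17 held 12.99%, 11.7% and 10.4% of the 77 regions, and 3.08%, 6.16% and 4.79% of the other 292. The chromosome 9 share includes the 8 regions of the window from 3 to 4 Mb.

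The shared regions took very different shares of the lists. In YY1 lists 3.45% and 2.29% of peaks in ΔcIDR cells against 6.71% and 4.92% in WT cells lay in them, and in P300 lists 20.1% and 22.7% in ΔcIDR cells against 19.6% and 13.3% in WT cells. The longer lists had the smaller shares within each antibody. Of the 20 strongest peaks of a list, 18 to 20 lay in shared regions, and of the 100 strongest 40 to 50 in YY1 and 64 to 66 in P300 lists.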

How the data were processed

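The deposited data are 1 peak list per CUT&RUN library in MACS2 narrowPeak form, so replicates were not pooled by the authors. Per the submitters' processing notes the build was GRCm39 and the tools were MACS2, BWA, fastp, Picard, featureCounts and SAMtools, without roles. Settings and any control library are not given in the sources used here. Per the file format, the authors deposited a whole-number score, the fold (a ratio of summit to local background), −log10 p, −log10 q and the summit position, and the lowest −log10 q was 1.30. Score and −log10 p were not used. No 2 lists were copies, with at most 23 equal intervals. Lists from chromosomes 1 to 19 and X were merged at 1 bp. Other sequences (0.683% to 10.0% of a list) were left out.

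The regions and comparisons were chosen with earlier results of these data known, and the placement comparison and the 1 Mb windows after these values were seen. Named regions are the 8 best-ranked of each class (called in all 8 libraries, and the others), the 5 at each end of the YY1 minus P300 percentile difference, the 3 widest of each class, and those held in 1 genotype only by both antibodies. Fold was used to describe and rank within lists. Tests are exact permutations over libraries, with an α of 0.05, run in Python 3.11.15 with numpy 2.4.6 and pandas 2.3.3, and tested on simulated lists. Alternatives changed the q threshold, the merging, list length, the minimum of libraries and the libraries used. No sequence is printed, since the tables at hand are on GRCm38.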

Additional observations from a re-analysis of the deposited data

Results flagged for a closer look

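Peaks outside chromosomes 1 to 19 and X were not used above. Merged by the same rule, they held 52 regions shared by YY1 and P300, 23 of them called in all 8 libraries. Unplaced scaffolds held 39 of the 52, chromosome Y 6 and the mitochondrial sequence 2, and 5 lay on dm, a sequence name the labels leave unexplained.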

How the results depend on the processing

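The 369 shared regions became 135 with peaks of −log10 q of at least 5, 221 with lists of equal length (3519 peaks for YY1 and 1286 for P300), 168 with at least 3 libraries per antibody, 142 with all 4 YY1 and 140 with all 4 P300 libraries. They stayed within 1.5 times at −log10 q of at least 2 (343), with merging at 50 bp (355) and with windows of 50 bp on each side of the summit (258), and ranged from 271 to 331 when a library was left out. The 77 regions became 48 with summit windows, and 57 to 77 with the other q thresholds, merging and list length. With a library left out, 80 to 89 regions were called in all that remained, which is a looser rule. Of the 38 named regions, 36, 20, 28, 38 and 27 were still shared at −log10 q of at least 2 and 5, with summit windows, with merging at 50 bp and at equal length. On the 221 regions at equal length the log2 genotype difference in regions called turned, to −0.17 for YY1 and 0.035 for P300. On the 135 regions at −log10 q of at least 5 it was 0.041 and −0.030. On the 369 regions it was 0.18 to 0.45 and −0.25 to −0.029 with a library left out. The difference in summit distance was 6.31 to 10.8 bp with a library left out, 76.5 bp by means and 13.4 bp without the 9 windows, at p = 0.029 (exact permutation) in each. The means include chr17:40153888-40159709, where the median summits of YY1 and P300 were 3962.5 bp apart, and so are open to single wide regions. The width difference was −0.22 to −0.13 with a library left out, and −0.24 without the windows (exact permutation p = 0.057). It passed 0.05 only without YY1 ΔcIDR 2. The YY1 placement difference was −8.86 to −5.32 with a library left out, −12.2 by fold and −6.37 without the windows, and the P300 difference −2.67 to −0.53, −0.71 and 0. These causes were not tested. Replicate numbers are shared by the groups, but deviations of equal numbers did not go together (r = 0.037 for YY1 over 2010 regions and −0.058 for P300 over 281). A replicate block leaves these differences of means unchanged by construction (log2 0.32 and −0.14, and −0.15 for width). With so few pairs its exact sign-flip test cannot pass 0.05 (p = 0.25 for width), so it decides nothing. Over the 77 regions the YY1 deviations had r = −0.15, and crossing the numbers gave the same log2 difference, again by construction. Read depth is not in the files, so a missing call cannot be read as absence.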

Other observations

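The 3 widest of the other 292 regions were chr4:147179197-147180755, chr12:20361636-20363130 and chr1:119002921-119004329, with widths of 1559, 1495 and 1409 bp. In the first, which lies in one of the 9 windows, the summits of the libraries were spread over 939 bp, YY1 folds were 3.33 to 5.69 and P300 folds 4.46 to 5.02. In the second the YY1 folds were 6.53 and 7.12 in ΔcIDR cells against 4.85 and 5.76 in WT cells, with P300 folds of 4.49 to 5.27 and a summit spread of 890 bp. In the third the median summits of YY1 and P300 were 5 bp apart, with folds of 5.14 to 5.53 and 5.77 to 5.83.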
